A study of Mus musculus with 20 samples.

Results

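Acod1, Hcar2, Sucnr1 and Pde4b are 4 genes whose products make, sense or relay the signals of small metabolites. They were taken by name, as every probe set that the platform annotation assigns to them, which gave 9 probe sets of the 45101 on the array and 4 of the 18193 genes with a single symbol. Acod1, Hcar2 and Sucnr1 had 1 probe set each and Pde4b had 6. The genes were selected on their measured levels across the 5 groups of these same arrays, so their differences between groups are given as a description, with no test.

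The data were 20 Affymetrix arrays of whole liver RNA from male C57BL/6 mice aged 8 to 12 weeks, with the RNA extracted in TRIzol. Control mice were non-manipulated (n = 5), and a second group had minor trauma (n = 3). The remaining mice had hemorrhagic shock with severe trauma for 1.5 h and were sampled at its end (n = 4, called shock below) or after a further 1 h (n = 4) or 4.5 h (n = 4) of resuscitation. The sources used here do not give the nature or the timing of the minor trauma, so injury and sampling time cannot be told apart in that group. The defining hepatocyte gene Alb lay between 13.06 and 13.31 on the log2 scale on all 20 arrays.

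Acod1, formerly Irg1, is the mitochondrial enzyme that decarboxylates cis-aconitate to itaconate in activated macrophages and neutrophils. Itaconate inhibits succinate dehydrogenase and modifies KEAP1, the repressor of the transcription factor NRF2. Sucnr1 is the cell surface receptor for succinate, known in liver from stellate cells, and Hcar2 is the Gi-coupled receptor for the ketone body beta-hydroxybutyrate and for niacin, known from adipocytes, macrophages and neutrophils. Gi-coupled receptors lower cAMP, and Pde4b is a phosphodiesterase that degrades cAMP and is known to be induced by endotoxin in monocytes and macrophages.

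All 4 members had their highest or lowest levels after resuscitation. Start regions are where the letters bound by inflammatory and cAMP-responsive factors are usually looked for. The 250 bases before an annotated start are shown for Acod1, Sucnr1 and Pde4b, since the reference used held no start for Hcar2. They are credited to RefSeq on GRCm38.p6, run 5′ to 3′ on the plus strand, which is the strand of each gene, and carry in capitals the matches described after them. Acod1 is at chr14:103047012-103056573, Sucnr1 at chr3:60081869-60087566, Pde4b at chr4:102087332-102607275 and Hcar2 at chr5:123863570-123865516. The 4 Pde4b starts in the table all lie inside the gene's span, none at its first base. Those with a match in capitals are printed, and no Hcar2 window was searched.
Acod1, chr14:103046762-103047011: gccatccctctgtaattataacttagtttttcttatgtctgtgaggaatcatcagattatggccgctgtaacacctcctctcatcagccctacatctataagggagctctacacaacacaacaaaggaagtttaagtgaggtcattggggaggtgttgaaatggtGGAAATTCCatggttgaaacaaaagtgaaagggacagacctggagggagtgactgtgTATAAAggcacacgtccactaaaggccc
Sucnr1, chr3:60081619-60081868: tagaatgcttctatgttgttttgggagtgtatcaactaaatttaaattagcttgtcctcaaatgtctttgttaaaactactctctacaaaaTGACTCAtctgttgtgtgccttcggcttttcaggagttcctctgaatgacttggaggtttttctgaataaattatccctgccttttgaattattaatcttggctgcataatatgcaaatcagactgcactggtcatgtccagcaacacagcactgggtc
Pde4b, chr4:102421305-102421554: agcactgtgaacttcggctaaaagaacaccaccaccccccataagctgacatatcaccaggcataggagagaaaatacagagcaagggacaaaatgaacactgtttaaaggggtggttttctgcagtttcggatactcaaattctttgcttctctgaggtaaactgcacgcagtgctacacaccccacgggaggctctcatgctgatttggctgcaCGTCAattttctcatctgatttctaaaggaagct
Pde4b, chr4:102569810-102570059: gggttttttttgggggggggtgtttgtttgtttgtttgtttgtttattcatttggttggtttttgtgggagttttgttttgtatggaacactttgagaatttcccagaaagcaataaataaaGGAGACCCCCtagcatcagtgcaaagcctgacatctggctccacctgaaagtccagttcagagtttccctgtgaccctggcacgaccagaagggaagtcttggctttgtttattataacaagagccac

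In the Acod1 sequence the capitals mark GGAAATTCC, a match to the NF-kB palindromic form GGAANTTCC at 85 to 77 bases before the start, and TATAAA at 28 to 23 bases before it. The palindromic form was found in 0.813% of 32841 RefSeq promoter windows of the same length, and TATAAA in 12.4%. In Sucnr1 the capitals mark the AP-1 form TGANTCA at 159 to 153 bases before the start, a form held by 6.75% of windows. In the first printed Pde4b start they mark CGTCA at 34 to 30 bases before the start. CGTCA is the reverse complement of the CRE half-site TGACG, a half-site held by 17.8% of windows. In the other Pde4b start the capitals mark GGAGACCCCC at 128 to 119 bases before the start. It matches the NF-kB consensus on the minus strand, a consensus held by 3.9% of windows. The motifs were searched on both strands together with the C/EBP form TTGCNNAA (9.57% of windows), the HIF core ACGTG (16.6%) and the GAS form TTCNNNGAA (7.02%). Acod1 also held the HIF core, as did the first printed Pde4b start, where it overlaps the CRE half-site by 3 bases. The second printed Pde4b start held a GAS match. These matches are letters in a window and were not tested as binding sites.

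Levels are log2 of the authors' array signal plus 6, quantile normalized over the 20 arrays, on which scale the median probe set of every array was 4.6. Signals below that median were taken as dim, since the values used here carry no detection calls. A fold is on the log2(value + 6) scale and understates the change of a dim gene. Where every array of the lower group was dim, the fold is given as a lower bound against 4.6. Errors after ± on a mean are the SD of the arrays, and errors on a difference are the standard error of a linear model over all 20 arrays. No probe set's level is set against that of another gene. In bulk liver, fewer cells that carry a transcript and less of it per cell cannot be told apart.

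Acod1, the itaconate-making enzyme, was dim in control liver and measured highest after resuscitation. Its control arrays read 2.82, 2.80, 2.80, 2.83 and 3.07, and its minor trauma arrays 3.84, 2.89 and 4.45. The shock arrays read 5.24, 5.11, 4.97 and 2.92. All 8 of these control and minor trauma arrays were dim, and in shock 3 of 4 were above the array median while array 4 sat at the control level. After 1 h of resuscitation the arrays read 6.50, 7.64, 8.29 and 6.81, and after 4.5 h they read 8.42, 8.68, 8.46 and 8.25. Every resuscitated array lay above every array of the other 3 groups, with the 1 h and 4.5 h ranges touching at 8.25 and 8.29.

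The Acod1 means were 2.87 ± 0.12 (SD, n = 5) in control, 3.73 ± 0.79 (n = 3) in minor trauma, 4.56 ± 1.1 (n = 4) in shock, 7.31 ± 0.81 (n = 4) at 1 h and 8.45 ± 0.18 (n = 4) at 4.5 h. The difference from control was 4.45 ± 0.40 (SE) at 1 h, at least 6.53-fold, and 5.59 ± 0.40 at 4.5 h, at least 14.4-fold. It was 0.86 ± 0.44 in minor trauma and 1.69 ± 0.40 in shock, in both of which arrays overlapped with control. Without shock array 4 the shock difference was 2.21. From shock to 1 h the level was higher by 2.75 ± 0.43, a 6.73-fold difference with no overlap, and from 1 h to 4.5 h by 1.14 ± 0.43 with overlap. In rising order the groups were control, minor trauma, shock, 1 h and 4.5 h, and the only neighbours whose arrays did not overlap were shock and 1 h.

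Hcar2, the receptor for beta-hydroxybutyrate, was dim in control and bright in both resuscitation groups. Control arrays read 3.10, 2.92, 3.04, 3.09 and 3.37, and minor trauma arrays 4.89, 3.04 and 5.0. The shock arrays read 4.59, 4.50, 5.09 and 2.85. Minor trauma array 2 and shock array 4, the arrays at which Acod1 was lowest in its group, were also the lowest for Hcar2 and lay within the control range or below it. The 1 h arrays read 7.59, 8.17, 8.54 and 7.93 and the 4.5 h arrays 7.93, 7.34, 7.99 and 8.35. The 2 resuscitation groups overlapped and both stood clear of all others.

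Mean Hcar2 levels were 3.10 ± 0.16 (SD, n = 5) in control, 4.31 ± 1.1 (n = 3) in minor trauma, 4.26 ± 0.97 (n = 4) in shock, 8.06 ± 0.40 (n = 4) at 1 h and 7.90 ± 0.42 (n = 4) at 4.5 h. Against control, the level at 1 h was higher by 4.95 ± 0.39 (at least 10.9-fold) and at 4.5 h by 4.80 ± 0.39 (at least 9.84-fold). Minor trauma and shock were above control by 1.20 ± 0.42 and 1.16 ± 0.39, with overlap, and differed from each other by -0.05 ± 0.44. From shock to 1 h the difference was 3.80 ± 0.41 with no overlap, where 1 of the 4 shock arrays was above the array median, and from 1 h to 4.5 h it was -0.15 ± 0.41. The order was control, shock, minor trauma, 4.5 h and 1 h, and the only gap between neighbours lay between minor trauma and 4.5 h.

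**Figure D1:**
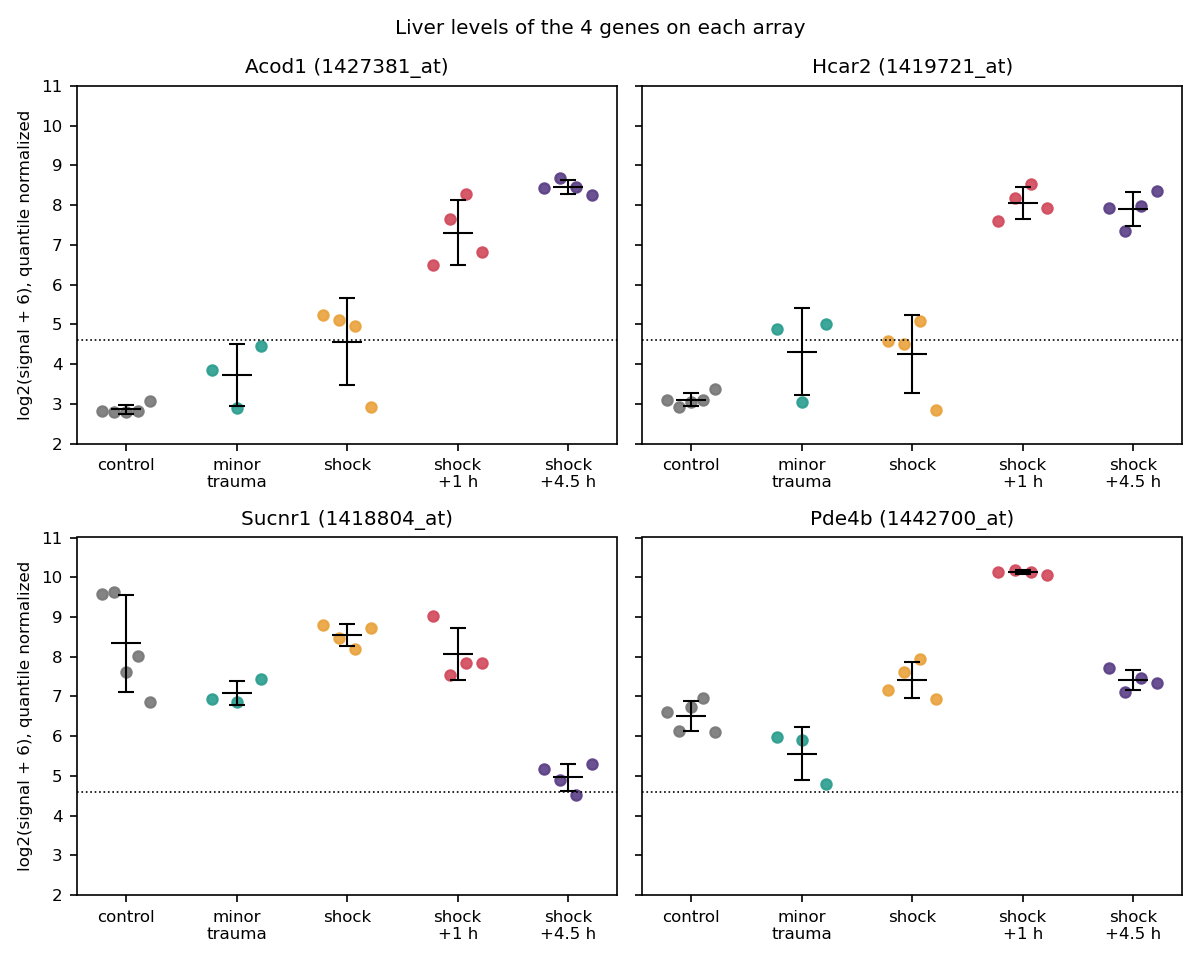
Log2 level of Acod1, Hcar2, Sucnr1 and Pde4b on each of the 20 arrays (vertical axis, log2 of signal plus 6 after quantile normalization), by group (horizontal axis), with a bar for each group mean, an error bar of 1 SD and a dotted line at the array median of 4.6. Acod1 and Hcar2 are at or above 6.50 on all 8 resuscitated arrays, Sucnr1 is at or below 5.29 on the 4.5 h arrays, and Pde4b peaks at 10.05 to 10.17 at 1 h.

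Sucnr1, the succinate receptor, was bright in control liver, spread most widely there, and was lowest after 4.5 h of resuscitation. The control arrays read 9.58, 9.62, 7.62, 8.01 and 6.85, and minor trauma arrays 6.94, 6.87 and 7.43. The shock arrays read 8.80, 8.48, 8.20 and 8.71. Control array 5, at 6.85, was the lowest control and lay just below the 3 minor trauma arrays. At 1 h the arrays read 9.03, 7.54, 7.85 and 7.84, and at 4.5 h 5.16, 4.89, 4.52 and 5.29. The 4.5 h arrays were all below every other array, and 1 of the 4 was dim.

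Group means of Sucnr1 were 8.33 ± 1.23 (SD, n = 5), 7.08 ± 0.30 (n = 3), 8.55 ± 0.27 (n = 4), 8.07 ± 0.66 (n = 4) and 4.96 ± 0.34 (n = 4) in control, minor trauma, shock, 1 h and 4.5 h. At 4.5 h the level was below control by -3.37 ± 0.43, a 10.3-fold difference, and below 1 h by -3.10 ± 0.45, an 8.6-fold difference, with no overlap in either comparison. Shock and 1 h lay within the control range, at 0.21 ± 0.43 and -0.27 ± 0.43 from control, and 1 h at -0.48 ± 0.45 from shock. Minor trauma was -1.26 ± 0.47 from control, and between -1.63 (without control array 5) and -0.94 (without control array 2) with 1 array left out. Shock was above minor trauma by 1.47 ± 0.49 (2.77-fold) with no overlap. The sign of the shock difference from control turns to -0.16 without control array 5, and that of the 1 h difference to 0.06 without control array 2. In rising order the groups were 4.5 h, minor trauma, 1 h, control and shock, and 1 h and control, and control and shock, overlapped.

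Pde4b, the cAMP phosphodiesterase, was the member that was high at 1 h and lower again at 4.5 h. Its probe set 1442700_at, which had the highest mean of the 6 and stands for the gene, read 6.60, 6.13, 6.74, 6.95 and 6.11 in control and 5.98, 5.91 and 4.79 in minor trauma. In shock it read 7.15, 7.62, 7.94 and 6.94. The shock and control ranges met at 6.94 and 6.95, and every minor trauma array was below every control array. At 1 h the arrays read 10.13, 10.17, 10.14 and 10.05, and at 4.5 h 7.71, 7.12, 7.46 and 7.33. The 1 h arrays were above all others and the most alike of any group, while the 4.5 h arrays fell among the shock values.

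Pde4b means were 6.51 ± 0.37 (SD, n = 5) in control, 5.56 ± 0.67 (n = 3) in minor trauma, 7.41 ± 0.45 (n = 4) in shock, 10.12 ± 0.05 (n = 4) at 1 h and 7.41 ± 0.25 (n = 4) at 4.5 h. The 1 h level was above control by 3.61 ± 0.24 (12.2-fold) and above shock by 2.71 ± 0.25 (6.54-fold), and the 4.5 h level was -2.72 ± 0.25 from 1 h (6.57-fold lower). At 4.5 h the level was 0.90 ± 0.24 above control (1.86-fold, no overlap), and in shock 0.90 ± 0.24 (overlap). Minor trauma was -0.95 ± 0.26 from control, and -0.56 without minor trauma array 3. Shock was above minor trauma by 1.85 ± 0.27, and by 1.46 without that array. In rising order the groups were minor trauma, control, shock with 4.5 h at the same mean, and 1 h, with overlap at the control to shock and shock to 4.5 h steps.

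The 6 Pde4b probe sets did not read alike, and the values used here do not place them on the gene's transcripts, so no isoform is named. Of the 4 that were bright on at least 3 arrays, 1422473_at and 1422474_at were also highest at 1 h, above control by 2.40 ± 0.28 (5.28-fold) and 2.0 ± 0.26 (4.01-fold), with no overlap. On 1422473_at the 1 h arrays read 6.97, 8.46, 8.34 and 7.73 and the control arrays 5.85, 5.80, 5.72, 5.05 and 4.97. These probe sets stayed 1.24 and 1.14 above control at 4.5 h. The remaining kept set, 1444731_at, was 0.17 ± 0.23 above control at 1 h and -0.11 ± 0.23 from it at 4.5 h, so its groups overlapped in all comparisons. The last 2, 1446577_at and 1447718_at, were above the array median on 0 arrays. Across the 20 arrays the first pair correlated at r = 0.97 with each other and at 0.87 and 0.84 with 1442700_at, while 1444731_at correlated at 0.10, 0.21 and 0.11 with the same 3; these are descriptions over arrays that share the same 5 groups.

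**Figure D2:**
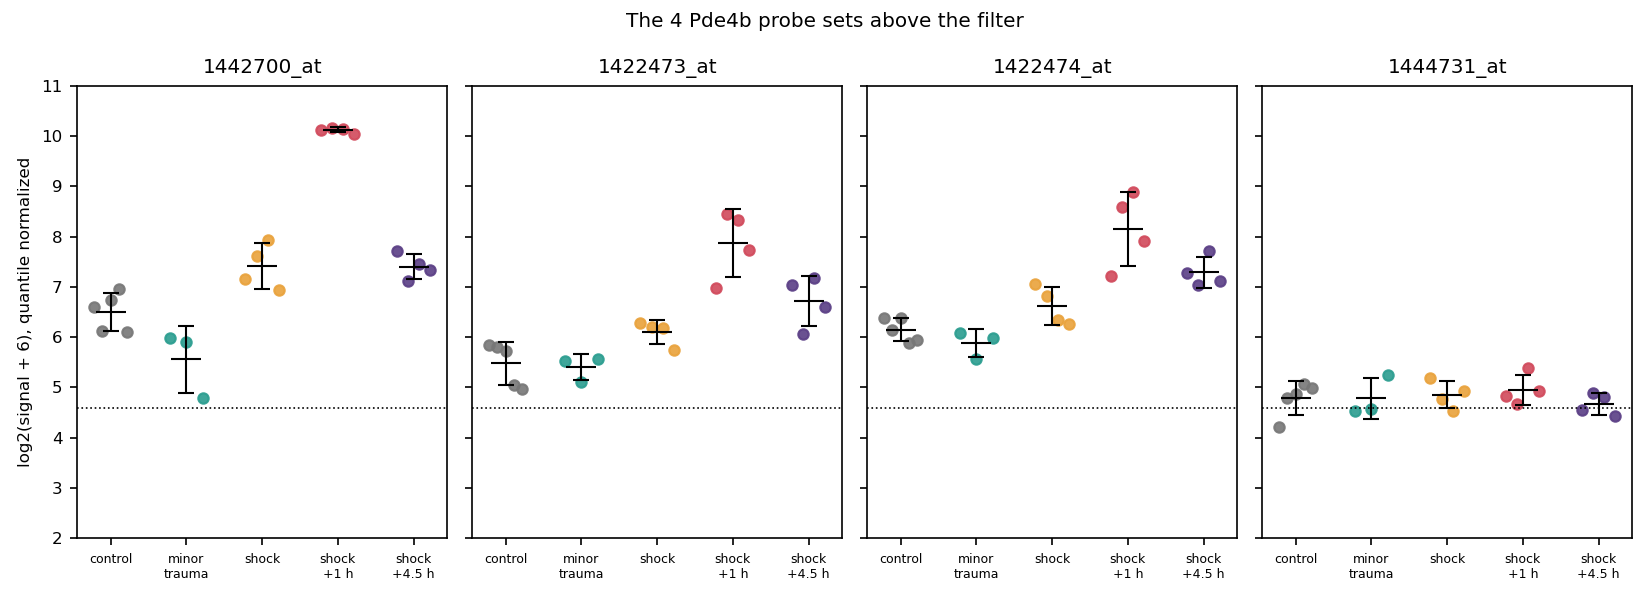
Log2 level (vertical axis, log2 of signal plus 6 after quantile normalization) of the 4 kept Pde4b probe sets in the 5 groups (horizontal axis), with a point per array, a bar for each group mean, an error bar of 1 SD and a dotted line at the array median of 4.6. The first 3 panels are highest at 1 h, and 1444731_at has group means of 4.68 to 4.95.

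Groups whose arrays did not overlap are counted here for the 4 genes in each comparison, beside the same count over the 12832 genes that were above the array median on at least 3 arrays. The background share covers both directions, and the comparisons with control share their 5 control arrays. In minor trauma against control 1 member did not overlap (Pde4b, lower), where the share over all genes was 7.33%. In shock against control 0 did, with 7.68% over all genes. At 1 h against control 3 did, all higher (Acod1, Hcar2 and Pde4b), with 12.1% over all genes, and at 4.5 h against control all 4 did, 3 higher and Sucnr1 lower, with 30.8% over all genes. In shock against minor trauma 2 did, Sucnr1 and Pde4b, both higher in shock, with 22.7% over all genes. From shock to 1 h 3 did, all higher, with 9.8% over all genes. From 1 h to 4.5 h 2 did, Sucnr1 and Pde4b, both lower, with 34.6% over all genes. Pde4b was counted on the probe set that stands for the gene. On 1422473_at, 1422474_at and 1444731_at minor trauma overlapped with control, at differences of -0.08, -0.27 and 0. On the same probe sets 4.5 h overlapped with 1 h, at -1.16, -0.87 and -0.28. In the remaining comparisons counted for Pde4b, groups overlapped on 1444731_at but not on 1422473_at or 1422474_at. Because the genes were chosen with these values known, no more is read from the counts.

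Over the 20 arrays Acod1 and Hcar2 had r = 0.96, and after removal of the group means 0.82. Minor trauma array 2 and shock array 4 were far below their groups for both genes. In minor trauma and at 1 h, arrays with a bright poly-A spike-in read higher for both genes than the rest of the group. In the other groups that order did not hold for both genes. How much of the 0.82 rests on these arrays was not tested. Acod1 and Pde4b had r = 0.61 and 0.01 within groups, and Hcar2 and Pde4b 0.69 and 0.12. Sucnr1 had r = -0.60 with Acod1, -0.52 with Hcar2 and 0.09 with Pde4b, and within groups -0.19, -0.14 and -0.19. The gene with the most similar pattern to Acod1, by Pearson correlation over the 20 arrays, was Mmp8 (r = 0.983), followed by Tnip1, Marcksl1, Ngp and Cxcl10 (0.977 to 0.967). For Hcar2 it was Marcksl1 (r = 0.967), followed by Acod1, Ngp, Rela and Mmp8. For Sucnr1 it was Phlpp1 (r = 0.969), followed by Tuba4a, Cfap20, Adh4 and Hjv, and for Pde4b it was Egr2 (r = 0.912), followed by Rnd1, Irf1, Ccnl1 and Sele. The within-group r was 0.81 for Mmp8 with Acod1, 0.83 for Phlpp1 with Sucnr1 and -0.07 for Egr2 with Pde4b. All points share the same 5 groups, so these are descriptions.

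Some arrays stood apart from their labels. Control array 5 correlated best with minor trauma array 2 (r = 0.983), and minor trauma arrays 1 and 2 correlated best with it. Whether a label was exchanged cannot be told from these values, which bears on each difference between control and minor trauma. Without control array 5 the minor trauma differences from control were 0.91 for Acod1, 1.27 for Hcar2, -1.63 for Sucnr1 and -1.04 for Pde4b. Minor trauma array 3 had the lowest quality weight of the 20, at 0.18. The arrays fell into 10 in which a poly-A spike-in was bright and 10 in which it was near 0, with both kinds in each group. The deposited signals were unscaled, with array medians from 14.05 to 29.11. The 4.5 h differences from control without control array 5 were 5.63 for Acod1 and 4.86 for Hcar2. Leaving out minor trauma array 3 took the Acod1 difference of minor trauma from 0.86 to 0.49 and that of Hcar2 from 1.20 to 0.86, and leaving out minor trauma array 2 took them to 1.28 and 1.84. Within the 10 arrays without the spike-in, which hold 1 minor trauma array, those differences were -0.01 and -0.14, and within the 10 with it 1.25 and 1.84, where Acod1 and Hcar2 at 1 h and 4.5 h stayed at 3.90 or more above control in both.

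Neutrophil genes differed between the groups in which Acod1 and Hcar2 differed, and their part in those results was not tested. Of 12 listed neutrophil markers 7 were tested with limma, and the number that rose against control was 2 for minor trauma, 6 for shock and 7 for each resuscitation group. Over all genes the shares that rose were 2.07% for minor trauma and 2.03% for shock, then 4.61% after 1 h and 15.1% after 4.5 h of resuscitation. With 1 array left out it was 5 or 6 for shock and 7 in both resuscitation groups, and for minor trauma it was 0 to 2. Their summed signal was 107 to 120 on control arrays 1 to 4 and 405 on control array 5. The minor trauma arrays gave 576, 476 and 287 and the shock arrays 2420, 1350, 2280 and 520, before 2770 to 4300 at 1 h and 4240 to 4740 at 4.5 h. Shock array 4, at which Acod1 and Hcar2 were lowest in shock, had the lowest summed signal of the shock arrays. In minor trauma the order was not the same: array 3 had the highest Acod1 and Hcar2 and the lowest neutrophil sum. The calprotectin gene S100a8 rose by 4.41 ± 0.56 in shock (adjusted p = 2.92e-05), by 5.66 ± 0.56 at 1 h (3.85e-07) and by 6.09 ± 0.56 at 4.5 h (3.06e-08). In minor trauma S100a8 was 2.33 ± 0.61 above control (0.0396), a call that ended without any of control arrays 1 to 4, the 3 minor trauma arrays or shock array 2. Its partner S100a9 rose by 5.80 ± 0.51 at 4.5 h (1.45e-08), and its minor trauma call (0.0494) ended in 18 of the 20 fits that left out 1 array, all but those without control array 5 or shock array 4.

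**Figure D3:**
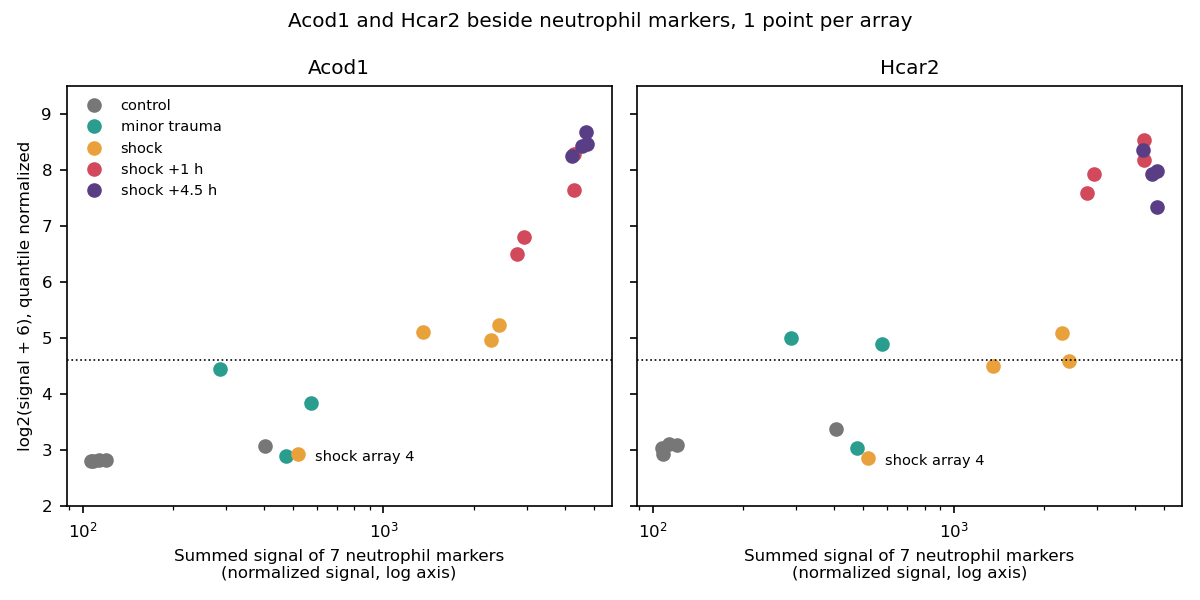
Summed signal of the 7 tested neutrophil markers on each array (horizontal axis, log scale) against the log2 level of Acod1 and Hcar2 (vertical axis), with a point per array and colours for the 5 groups. Control arrays 1 to 4 lie between 107 and 120 with Acod1 at 2.80 to 2.83, and shock array 4, at 520 and 2.92, is apart from the other shock arrays.

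Some markers of resident liver cells fell at 4.5 h, when Sucnr1 was lowest, and their part in the Sucnr1 result was not tested. Of 10 listed stellate cell genes 9 were tested and 3 fell at 4.5 h: Lrat, the enzyme that stores vitamin A, by 1.95 ± 0.29 (adjusted p = 1.61e-05), Reln by 0.46 ± 0.10 (0.00119) and Colec11 by 1.03 ± 0.13 (1.4e-06), where 23.8% of all genes fell. The other 6 did not pass the test, with differences from -0.50 (Pdgfrb) to 0.14 (Rgs5). Lrat read 6.09, 7.24, 7.58, 6.98 and 6.02 in control and 4.81, 4.82, 4.65 and 5.05 at 4.5 h. The 9 stellate genes summed to 3240 to 3390 at 4.5 h against 3310 to 4310 in control, so that the sums overlapped. Of 11 Kupffer cell genes 9 fell and 1 rose at 4.5 h (8 and 2 without control array 3 or 4.5 h array 1), with sums of 1440 to 2030 against 3180 to 5200, and the Kupffer gene Vsig4 fell by 2.34 ± 0.17 (8.36e-10). Of 8 endothelial genes 5 fell and 2 rose (1 without control array 4 or 5 or 4.5 h array 2 or 4), with sums of 1470 to 1680 against 1960 to 2770. Of 6 monocyte genes tested 3 rose at 4.5 h, where 15.1% of all genes rose. These were Chil3 at least 9.14-fold (5.99e-10), F13a1 at least 4.1-fold (2.85e-08) and Vcan at least 1.41-fold (1.24e-05). The defining monocyte gene Ccr2 did not pass the test, at 0.32 ± 0.21 (0.24). Nor did Fcnb, at 0.64 ± 0.42 (0.244), or F10, at 0 ± 0.12 (0.998).

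The wider pathway was described with 8 lists of genes around the 4 members, 156 genes tested of 197 listed, chosen with earlier results of these data known. Genes were tested with limma over all 12832, and with a call at 0.05 or less after adjustment. In minor trauma 9 list genes rose (Fh1, Slc16a6, Cpt2, Junb, Igfbp1, Creb3l3, Lcn2, Cxcl1 and Myd88) and 2 fell (Gclc and Ppargc1a), against 2.07% and 1.37% of all genes, and with the values as deposited 11 rose and 0 fell. Without minor trauma array 3 the count was 0 of 156, with 29 at an unadjusted p under 0.05, and without control array 5 it was 22. Leaving out each of control arrays 1 to 4 gave 1, 1, 2 and 6, each of shock arrays 1 to 3 gave 6, 7 and 7, and 4.5 h array 1 or 2 gave 7. In shock 27 rose and 0 fell (2.03% and 1.08% of all genes), at 1 h 44 rose and 3 fell (4.61% and 5.31%), and at 4.5 h 43 rose and 50 fell (15.1% and 23.8%). In shock against minor trauma 25 were higher and 11 lower (4.18% and 5.38%; 19 and 4 with the values as deposited), from shock to 1 h 11 rose and 2 fell (0.873% and 0.374%; 7 in all without 1 h array 2), and from 1 h to 4.5 h 17 rose and 58 fell (14.9% and 18.2%). Over all genes, the share of calls that were higher went, with the values as deposited, from 60.1% to 94.8% in minor trauma, from 65.2% to 85.9% in shock, from 46.5% to 71.2% at 1 h and from 38.8% to 27.2% at 4.5 h. It went from 43.7% to 32.8% in shock against minor trauma and from 45% to 33.2% from 1 h to 4.5 h.

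**Figure D4:**
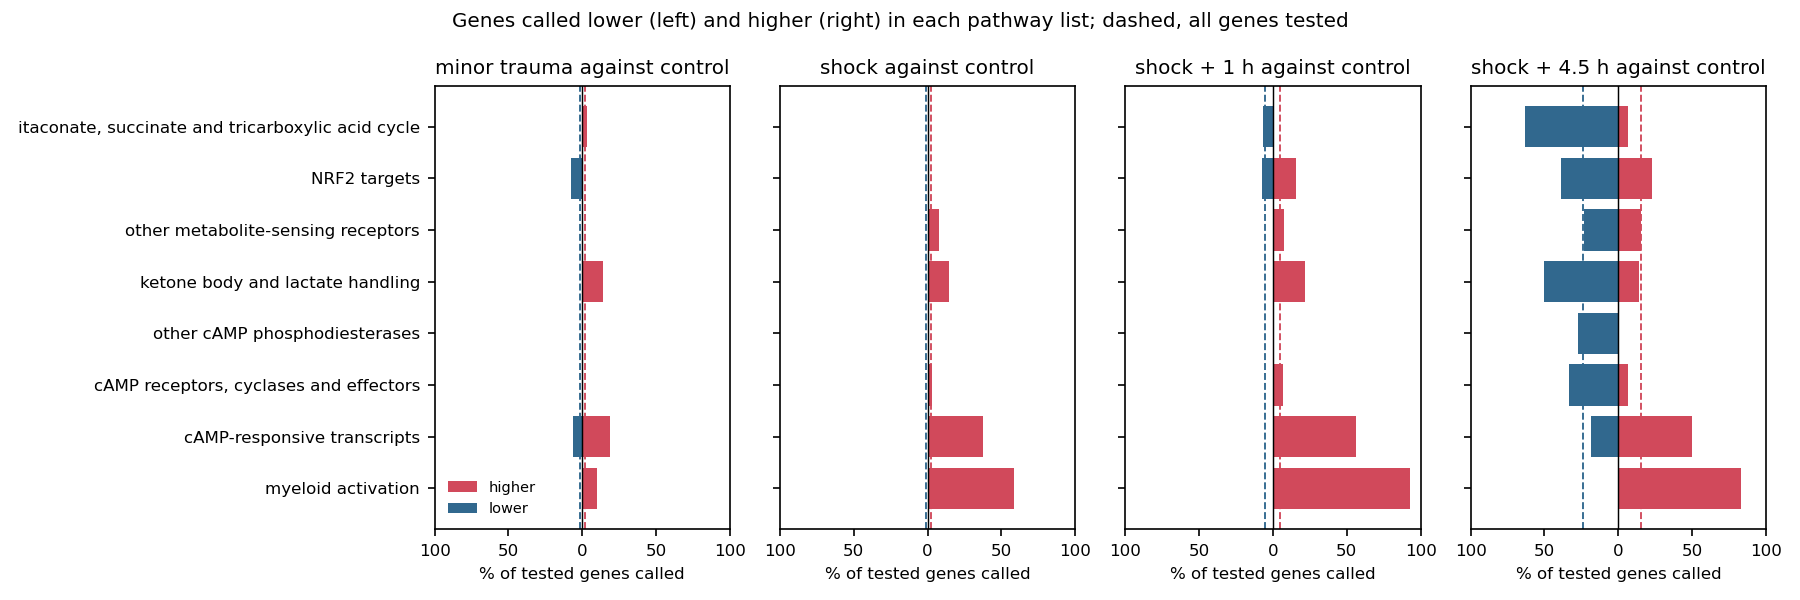
Percentage of tested genes of each of the 8 lists (horizontal axis) that rose or fell against control, with bars to the right for higher and to the left for lower and dashed lines for all genes tested, in the 4 comparisons with control. The myeloid activation list reaches 93.1% higher at 1 h, and the itaconate and tricarboxylic acid cycle list 63.3% lower at 4.5 h.

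Around itaconate and succinate, 30 genes were tested. None was called in shock, where 2.03% of all genes rose and 1.08% fell (4 at an unadjusted p under 0.05, and 1 called without minor trauma array 3). At 1 h 2 fell (6.7%, beside 5.31% of all genes). At 4.5 h 2 rose and 19 fell (6.7% and 63.3%, beside 15.1% and 23.8% of all genes). All 4 subunits of succinate dehydrogenase, the enzyme that itaconate inhibits, fell at 4.5 h: Sdha by 0.33 ± 0.09 (adjusted p = 0.004), Sdhb by 0.32 ± 0.07 (0.000945), Sdhc by 0.35 ± 0.10 (0.00955) and Sdhd by 0.59 ± 0.11 (0.000219). Its assembly factor Sdhaf1 fell by 0.87 ± 0.14 (5.26e-05) and Idh3a, a subunit of isocitrate dehydrogenase, by 0.76 ± 0.17 (0.00109). The 2-oxoglutarate carrier Slc25a11 fell by 1.26 ± 0.14 (2.88e-07) and citrate lyase Acly by 1.17 ± 0.27 (0.00174). The citrate transporter Slc13a5 rose by 1.89 ± 0.18 (6.03e-08) and fumarase Fh1 by 0.61 ± 0.11 (0.0001). The dicarboxylate transporter Slc13a2 was at least 1.3-fold lower (0.0374), a call that ended without control array 1, 3 or 4 or 4.5 h array 2 or 3 (0.0576 to 0.134). The subunit genes were picked after their values were seen.

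Of 13 NRF2 pathway genes, 2 rose and 1 fell at 1 h (1 in all without 1 h array 2). These were 15.4% and 7.7% of the list, beside 4.61% and 5.31% of all genes. At 4.5 h 3 rose and 5 fell (23.1% and 38.5%, beside 15.1% and 23.8% of all genes). None was called in shock, where 2.03% of all genes rose and 1.08% fell (1 at an unadjusted p under 0.05). Heme oxygenase Hmox1 rose by 2.43 ± 0.36 at 1 h (adjusted p = 8.91e-05) and 2.47 ± 0.36 at 4.5 h (1.41e-05). The glutathione synthesis gene Gclm fell by 1.01 ± 0.11 at 4.5 h (2.13e-07), Nqo1 by 0.71 ± 0.22 (0.0138) and Ephx1 by 0.69 ± 0.19 (0.00575), while Keap1 rose by 0.59 ± 0.11 (0.000227). At 1 h Keap1 had fallen by 0.43 ± 0.11 (0.0156), a call that ended without 1 h array 1 or 2, and Nfe2l2, which encodes NRF2, rose by 0.47 ± 0.13 (0.0206), a call that ended without control array 1 or 2 or 1 h array 2 or 3. Gclc, the partner of Gclm, fell by 1.36 ± 0.33 in minor trauma (0.031), a call that ended without control array 1, 2, 3 or 4 or minor trauma array 2 or 3. Of 14 ketone body and lactate genes, 2 rose in shock, 3 rose at 1 h, and 2 rose and 7 fell at 4.5 h. The shares that rose were 14.3% in shock and 21.4% at 1 h, beside 2.03% and 4.61% of all genes. At 4.5 h 14.3% rose, near the 15.1% of all genes, and 50% fell, beside 23.8%. The transporter Slc16a6, which carries beta-hydroxybutyrate out of liver cells in zebrafish, rose by 1.46 ± 0.26 in shock (0.00142) and 1.66 ± 0.26 at 1 h (0.000137). The lactate transporter Slc16a1 rose by 1.21 ± 0.12 at 4.5 h (7.95e-08), and the beta-hydroxybutyrate dehydrogenase Bdh1 fell by 0.89 ± 0.16 (0.000114). The carnitine transferases Cpt1a and Cpt2 fell by 0.60 ± 0.16 (0.00463) and 0.59 ± 0.14 (0.00209) at 4.5 h. Aacs, which activates acetoacetate, rose by 0.99 ± 0.24 in shock (0.0237), a call that ended without control array 2 or 4 or shock array 1, 2 or 3, and by 1.30 ± 0.24 at 1 h (0.00113). Slc16a7 fell by 0.68 ± 0.25 at 4.5 h (0.0333), a call that ended without control array 4 or 4.5 h array 1 or 2.

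Of 28 other metabolite-sensing receptors 13 were tested, and 1 rose in shock, 1 at 1 h and 2 at 4.5 h, when 3 fell. In shock and at 1 h a single gene made 7.7% of the list, beside 2.03% and 4.61% of all genes that rose. At 4.5 h the genes that rose and fell were 15.4% and 23.1% of the list, near the 15.1% and 23.8% of all genes. Gpr84, a receptor for medium-chain fatty acids, was at least 1.76-fold higher at 1 h (adjusted p = 0.00551) and at least 1.84-fold at 4.5 h (0.00091), and the fatty acid receptor Ffar4 at least 1.52-fold at 4.5 h (0.00116). The nucleotide receptor P2ry6 was at least 1.32-fold lower at 4.5 h (0.00513). Its relative P2ry1 also passed the test as lower (0.0117), with both group means below the array median, at 3.02 and 4.34 in control, so no fold is given. The proton-sensing Gpr65 rose by 0.85 ± 0.19 in shock (0.0145), a call that ended without shock array 2 (0.0511) or shock array 3 (0.0804). Hcar1, Oxgr1 and the other 5 receptors that were measured but not bright on 3 arrays were not tested.

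Pde4b was read beside 11 other cAMP phosphodiesterases tested. None of those was called in minor trauma, shock or at 1 h (3, 1 and 1 at an unadjusted p under 0.05). Over all genes 2.07% rose and 1.37% fell in minor trauma, 2.03% and 1.08% in shock, and 4.61% and 5.31% at 1 h. For 11 genes a count of 0 is near those shares, so nothing particular to Pde4b is read from it. At 4.5 h 3 fell, or 27.3% of the list, near the 23.8% of all genes. These were Pde2a by 1.60 ± 0.14 (adjusted p = 1.43e-08), Pde8a by 1.29 ± 0.15 (9.83e-07) and Pde3b by 0.93 ± 0.15 (4.83e-05). At 1 h the closest relatives of Pde4b measured 0.05 ± 0.35 (Pde4a, 0.958) and 0.49 ± 0.23 (Pde4d, 0.208). Among 30 cAMP receptors, cyclases and effectors, 1 rose in shock (2 without control array 5 or shock array 4). At 1 h 2 rose (4 without control array 5), and at 4.5 h 2 rose and 10 fell. The shares that rose were 3.3%, 6.7% and 6.7%, beside 2.03%, 4.61% and 15.1% of all genes. At 4.5 h 33.3% fell, beside 23.8% of all genes. The scaffold Akap12 rose by 1.71 ± 0.25 in shock (0.000141), 3.21 ± 0.25 at 1 h (1.27e-08) and 3.71 ± 0.25 at 4.5 h (2.55e-10). The prostaglandin E receptor Ptger4 rose by 1.55 ± 0.31 at 1 h (0.00237). The cyclase Adcy6 fell by 1.69 ± 0.23 (6.23e-06) and the glucagon receptor Gcgr by 1.07 ± 0.15 (1.27e-05) at 4.5 h, and Adcy1 was at least 2.02-fold higher (0.000103).

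Of 16 cAMP-responsive transcripts 6 rose in shock, 9 at 1 h and 8 at 4.5 h, when 3 fell. The shares that rose were 37.5%, 56.2% and 50%, beside 2.03%, 4.61% and 15.1% of all genes. At 4.5 h 18.8% fell, beside 23.8% of all genes. Fos rose by 4.34 ± 0.26 in shock (adjusted p = 6.42e-10), 3.82 ± 0.26 at 1 h (2.83e-09) and 1.48 ± 0.26 at 4.5 h (0.000103), and Nr4a1 by 2.87 ± 0.21 (1.82e-08), 2.83 ± 0.21 (9.07e-09) and 0.97 ± 0.21 (0.000926). Dusp1, Junb and Igfbp1 rose in shock by 2.72 ± 0.23 (1.28e-07), 2.55 ± 0.22 (1.17e-07) and 2.53 ± 0.33 (3.95e-05). The listed genes that did not pass in shock lay between -0.15 ± 0.14 (Creb3l3, 0.725) and 1.00 ± 0.37 (Per1, 0.178) from control. Among them Pck1 was at 0.05 ± 0.15 (0.933) and Crem at 0.11 ± 0.15 (0.838). The arrays measured RNA and not cAMP, and which signal moved these genes was not tested. Creb3l3 fell by 0.68 ± 0.14 at 4.5 h (0.000806). G6pc, the last enzyme of gluconeogenesis, rose by 1.51 ± 0.31 in shock (0.00608) and fell by 3.33 ± 0.31 at 4.5 h (3.45e-08). The coactivator Ppargc1a rose by 1.00 ± 0.25 at 1 h (0.0106) and fell by 1.45 ± 0.25 at 4.5 h (7.85e-05).

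Of 29 myeloid activation genes, 17 rose in shock, 27 after 1 h and 24 after 4.5 h, beside the 3 of minor trauma. As shares these were 58.6%, 93.1%, 82.8% and 10.3%, beside 2.03%, 4.61%, 15.1% and 2.07% of all genes. The RNA was of whole liver, so the name of the list does not say which cells carried the transcripts, and that was not tested. From 1 h to 4.5 h 8 rose and 14 fell (27.6% and 48.3%, beside 14.9% and 18.2% of all genes). The chemokine Cxcl2 rose by 5.55 ± 0.42 in shock (adjusted p = 3.07e-08), 6.91 ± 0.42 at 1 h (6.99e-10) and 4.63 ± 0.42 at 4.5 h (2.82e-08). Il1b rose by 3.6 ± 0.38 in shock (2.56e-06) and 4.26 ± 0.38 at 1 h (9.6e-08), and the NF-kB inhibitor Tnfaip3 by 4.99 ± 0.34 at 1 h (3.01e-09). Tlr2, a receptor for bacterial lipoproteins, rose by 2.73 ± 0.34 at 1 h (9.56e-06) and 4.69 ± 0.34 at 4.5 h (8.66e-10), and the acute phase gene Saa3 by 4.91 ± 0.42 at 4.5 h (1.18e-08). Ccl3 was at least 12.1-fold higher at 1 h (1.7e-06) and Il6 at least 10.4-fold higher in shock (5.58e-07). Cxcl1 rose by 2.73 ± 0.61 in shock (0.0129), a call that ended without shock array 1, 2 or 3, and Lcn2 by 2.98 ± 0.79 at 1 h (0.0169), a call that ended without control array 4 or 1 h array 2, 3 or 4, and by 5.29 ± 0.79 at 4.5 h (1.77e-05). The adaptor Myd88 rose by 2.08 ± 0.19 at 4.5 h (2.47e-08). In minor trauma Cxcl1 rose by 3.13 ± 0.67 (0.0199), Lcn2 by 4.46 ± 0.86 (0.0151) and Myd88 by 0.90 ± 0.20 (0.0241). Each of those calls ended in at least 1 fit that left out 1 array. Shock was -0.39 ± 0.70 from minor trauma for Cxcl1 (0.781), -3.77 ± 0.90 for Lcn2 (0.0108) and -1.10 ± 0.21 for Myd88 (0.00299).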

How the data were processed

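The deposited values are intensity signals on a linear scale that the authors made with the MAS5 method, per the submitters' processing notes. The sources used here give neither its version nor its scaling. Their array medians differed, so log2(value + 6) was quantile normalized over the 20 arrays. Symbols came from the platform annotation, with 34945 probe sets of 1 gene used, 932 of several and 9160 of none left out. A probe set was kept if above its array's median on at least 3 arrays, and the one with the highest mean stood for a gene (12832 of 18193). The test of pathway genes used limma 3.58.1 under R 4.3.3 with version 1.17.8 of data.table, as a single model of 5 group means over all 20 arrays with an intensity trend, adjusted by Benjamini and Hochberg within each of 7 comparisons. On simulated data for 4.5 h against control, over 12832 genes, 98% of changes of 1.5 and 100% of changes of 3 on the log2 scale were recovered, with 3.88% false calls. The simulation changed 200 genes and drew independent normal noise, with the same SD for a gene in every group. It held no deviant arrays, so its rates are not the error rates of the calls reported here. The labels name the arrays of a group replicates, and p-values measure the spread between these samples.

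The members and the gene lists were chosen with earlier results of these data known. Named genes were, in each list, up to 4 with the largest change that passed in each comparison with control, and the 5 most similar genes per member. Same-numbered arrays were checked for pairing: over 36 pairs, deviations from group means correlated at -0.08 to 0.17, with 3 over 0.1. No pairing was modelled, though this check cannot exclude that same-numbered arrays shared a day or a batch. Plots used matplotlib 3.10.9, pandas 2.3.3, numpy 2.4.6 and python 3.11.15. The leave-out of arrays for the marker lists was added after seeing the data. Alternatives were other scalings, pseudocounts of 1 and 18, the replicate block, the spike-in sets, each array left out, other probe sets, no filter, array weights and no intensity trend.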

Additional observations from a re-analysis of the deposited data

Results flagged for a closer look

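Among 28 groups of 4 or 5 arrays, over the 7 kept probe sets of the 4 genes, 2 held an array far from the others, both for Acod1. Chance marks about 1 in 20 independent groups. These groups are not independent, since Pde4b gave 4 of the probe sets and all share the same arrays. No excess over chance is read from the 2. The genes were chosen on these same values, so the gaps are a description. Control array 5 had an Acod1 level of 3.07, against 2.83 for the next array, a gap of 0.867 of the group's range where 0.71 is the critical value. All 5 control arrays were dim for Acod1, below the array median of 4.6, so this gap lies among dim values. Shock array 4 had an Acod1 level of 2.92, against 4.97 for the next, a gap of 0.88 of the range, above the critical value for 4 arrays. The summed neutrophil signal was 405 on control array 5, the highest of the control arrays, and 520 on shock array 4, the lowest of the shock arrays.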

How the results depend on the processing

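Of the members' differences under the alternatives, 821 kept their value within the spread between arrays, 37 moved beyond it and 3 that were larger than that spread turned sign. Smaller differences, such as that of Hcar2 in shock against minor trauma, also changed sign. With a pseudocount of 1 the Acod1 differences from control in minor trauma, shock, 1 h and 4.5 h were 1.68, 2.83, 6.09 and 7.27, and those of Hcar2 in minor trauma, 1 h and 4.5 h were 1.86, 6.21 and 6.06. With a pseudocount of 18 Acod1 was 0.96, 3.16 and 4.23 in shock, 1 h and 4.5 h, and Hcar2 3.76 and 3.61 at 1 h and 4.5 h, and 3.1 from shock to 1 h. Both genes are dim in control, where the pseudocount sets the size. Within the spike-in set Sucnr1 was -1.12 at 1 h, Pde4b 2.37 in shock against minor trauma, and 41 list genes were called from 1 h to 4.5 h. Within the other set, which has 1 minor trauma array, the sign turned for minor trauma in Acod1 (-0.01) and Hcar2 (-0.14), Hcar2 and Pde4b were 0.72 and 1.13 in shock against minor trauma, and list genes called were 0 in minor trauma (10 at an unadjusted p under 0.05 in limma), 8 in shock, 27 at 1 h, 2 for shock relative to minor trauma, 0 from shock to 1 h (35 unadjusted) and 42 from 1 h to 4.5 h, with fewer arrays in that fit. The cause of the other moves was not tested.

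The Pde4b values differed between its probe sets. In the order minor trauma, shock, 1 h and 4.5 h against control, 1444731_at gave 0.00, 0.07, 0.17 and -0.11, with 0.08 for shock against minor trauma, 0.1 for 1 h against shock and -0.28 for 4.5 h against 1 h. On 1422473_at the minor trauma difference was -0.08, that at 1 h 2.4, and those of shock against minor trauma, 1 h against shock and 4.5 h against 1 h were 0.7, 1.77 and -1.16. On 1422474_at they were -0.27, 0.47 and 2 in minor trauma, shock and 1 h, then 0.74, 1.53 and -0.87. The probe sets never above the array median gave no value.

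List genes called in minor trauma, 11 as reported, were 18 with median centring, 6 with no filter, 4 with no intensity trend and 0 to 22 with 1 array left out. Shock against minor trauma gave 23 with the values as deposited, and 1 h against shock 7 to 15 with 1 array left out, 7 without 1 h array 2. Leaving out 1 array moved Pde4b between -1.15 and -0.56 in minor trauma and between 1.46 and 2.05 in shock against minor trauma, where leaving out both control array 5 and minor trauma array 3 gave 1.46. With the replicate block 23 list genes were called in minor trauma, a block that treats same-numbered arrays as paired, which was not shown. With that block no other count moved by over 1.5 times. With unscaled values the median difference over all genes was 0.20 in minor trauma, -0.27 at 4.5 h and -0.22 in shock against minor trauma. With the quantile normalized values these medians were 0, -0.09 and -0.02. Unscaled values moved the share of list calls that were higher from 81.8% to 100% in minor trauma. In shock against minor trauma they moved it from 69.4% to 82.6%.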
